A study of Canis lupus familiaris with 5 samples.

Results

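The nuclear genes of the mitochondrial respiratory chain were examined in 5 canine lymphoid tumor cell lines. The members were all genes with a single annotation symbol beginning NDUF, UQCR, COX4 to COX8 or ATP5, or equal to SDHA, SDHB, SDHC or SDHD. The rule gave 70 genes on 139 probe sets, out of 15115 genes with a symbol of their own. Each gene was read from its probe set of highest mean. By role the genes were 6 core and 27 accessory subunits of complex I, 7 assembly factors of complex I, and 4 genes of complex II. A further 7 belonged to complex III, 9 to complex IV and 10 to complex V. The label of respiratory chain subunits thus covers 61 genes, since the symbols also pick up the 7 NDUFAF assembly factors, the ATP synthase inhibitor ATP5IF1 and the supercomplex factor COX7A2L. NDUFA4 and its paralog NDUFA4L2 were placed with complex IV, to which NDUFA4 is now assigned in spite of its name.

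The study compared 5 lymphoid lines in wide use, each on 1 Affymetrix canine array of total RNA, grown untreated in RPMI with 10% FBS. By the lineage labels 17-71 (a malignancy of B-lymphoid type) and GL-1 (leukemia of B cells) were B-labelled (n = 2). CL-1 (a primitive a/b T-cell leukemia), CLGL-90 (an LGL leukemia, labelled LGL T-cell) and CLL-1390 (a primitive T-cell leukemia) were T-labelled (n = 3). Each line is a single immortal culture with no replicate array. Every SD, SE and p-value here therefore reflects how single arrays of these lines differ, with line differences and array noise mixed. They do not measure variation within a line. The SEs and p-values also draw on the spread of all genes tested, and precision is limited by the number of arrays. Values are log2 intensities. They are from bulk RNA, so fewer expressing cells and less RNA per cell cannot be told apart.

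The respiratory chain sits in the inner mitochondrial membrane. Complex I takes electrons from NADH and complex II from succinate. Complex III passes them on to cytochrome c and complex IV to oxygen, while complexes I, III and IV pump protons. Complex V, the ATP synthase, uses the returning protons to make ATP. Most subunits are encoded in the nucleus and a few in mitochondrial DNA. In lymphocytes, activation and growth draw on this chain for ATP and for aspartate and nucleotide synthesis.

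Background was read from 59 control probe sets with no target in dog RNA, whose medians per array were 4.07 to 4.29 and whose highest values were 6.39 to 6.76. In all 5 lines 69 of the 70 genes lay above the highest control. The exception, NDUFA4L2, read 6.43 to 6.58. The array median was 6.87 in CL-1 and 6.95 to 7.0 in the other lines. The difference between 3′ and 5′ probe sets ran from -0.06 to 0.02 for GAPDH and from -0.55 in GL-1 to -0.26 in 17-71 for the actin set that spread most. The lineage labels were only partly borne out by marker genes. All 8 T-lineage markers lay above the controls in CLGL-90, 6 did so in CLL-1390 and 4 in CL-1, where CD3D (5.44) and CD3G (5.34) were in the control range. Among the B-labelled lines 17-71 had 3 of the 8, CD2 among them at 11.42. GL-1 had 6, with CD3D at 9.78 and LCK at 10.65, while CD2 (5.71) and CD247 (5.85) were in the control range. GL-1 was also the only line with CD79A, a B-lineage marker, above the controls (7.83 against 5.15 to 5.80), so its markers were mixed. Of 7 B-lineage markers 3 lay above the controls in 17-71, 3 in GL-1 and 1 to 3 in the T-labelled lines, and CD79B and CD22 lay in the control range in every line. The 3 in 17-71 did not set it apart from the T-labelled lines. PAX5 lay above the controls in all 5 lines, BLNK read 8.12 in 17-71 and 9.90 in CLGL-90, and BTK read 11.52 in 17-71 and 11.23 in CLL-1390.

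Respiratory chain genes stood at slightly lower levels in the B-labelled than in the T-labelled lines. The mean of the B-labelled lines was the lower one in 63 of 70 genes, against 54.9% of all 14162 genes tested. The median difference, B-labelled minus T-labelled, was -0.29 on the log2 scale over the 70 genes and -0.03 over all genes tested. In 31 of the 70 genes both B-labelled lines lay below all 3 T-labelled lines (44.3%), a pattern found in 9.26% of all genes tested and in 12.6% of those with a mean of at least log2 11, where 60 of the 70 genes lie. The opposite pattern, with both B-labelled lines on top, was found in 0 of the 70 genes and in 6.12% of all genes tested (8.06% of the bright ones). Without GL-1, whose lineage markers were mixed, 56 of 70 genes still had the lower value in the remaining B-labelled line, with a median difference of -0.28. Without CL-1 it was 66 of 70, with a median of -0.30 (-0.07 over all genes tested), and without CLGL-90 or CLL-1390 it was 58 of 70. The share of all genes with a lower B-labelled mean was not counted in these settings. The 70 genes vary together across the same 5 arrays and are not independent replicates, so no p-value is attached to these counts.

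No single gene of the chain passed the test. In limma, with p-values adjusted over all genes, 0 of 70 passed, while 1 of 14162 genes did (0.00706%). At an unadjusted p under 0.05 the count was 10 of 70, all with lower B-labelled means, against 3.52% of all genes tested in either direction. With an intensity trend and a robust prior limma called 0 of 70 as well, while 10 of all 14162 genes passed. In that setting 8 of 70 were under 0.05 unadjusted, against 438 of 14162 genes tested. The unadjusted count changed with the lines kept, and fewer lines also weaken the test. It was 1 of 70 without CLL-1390, where 594 of 14085 genes tested were under 0.05. It was 8 of 70 without CLGL-90 (623 of 14096) and 11 of 70 without CL-1 (769 of 14109). Leaving out a B-labelled line leaves 1 array in that group, so only the median difference is given: -0.34 without 17-71 and -0.28 without GL-1. Differences ran from -0.96 in UQCRFS1 and NDUFAF7 to 0.40 in SDHD.

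**Figure D1:**
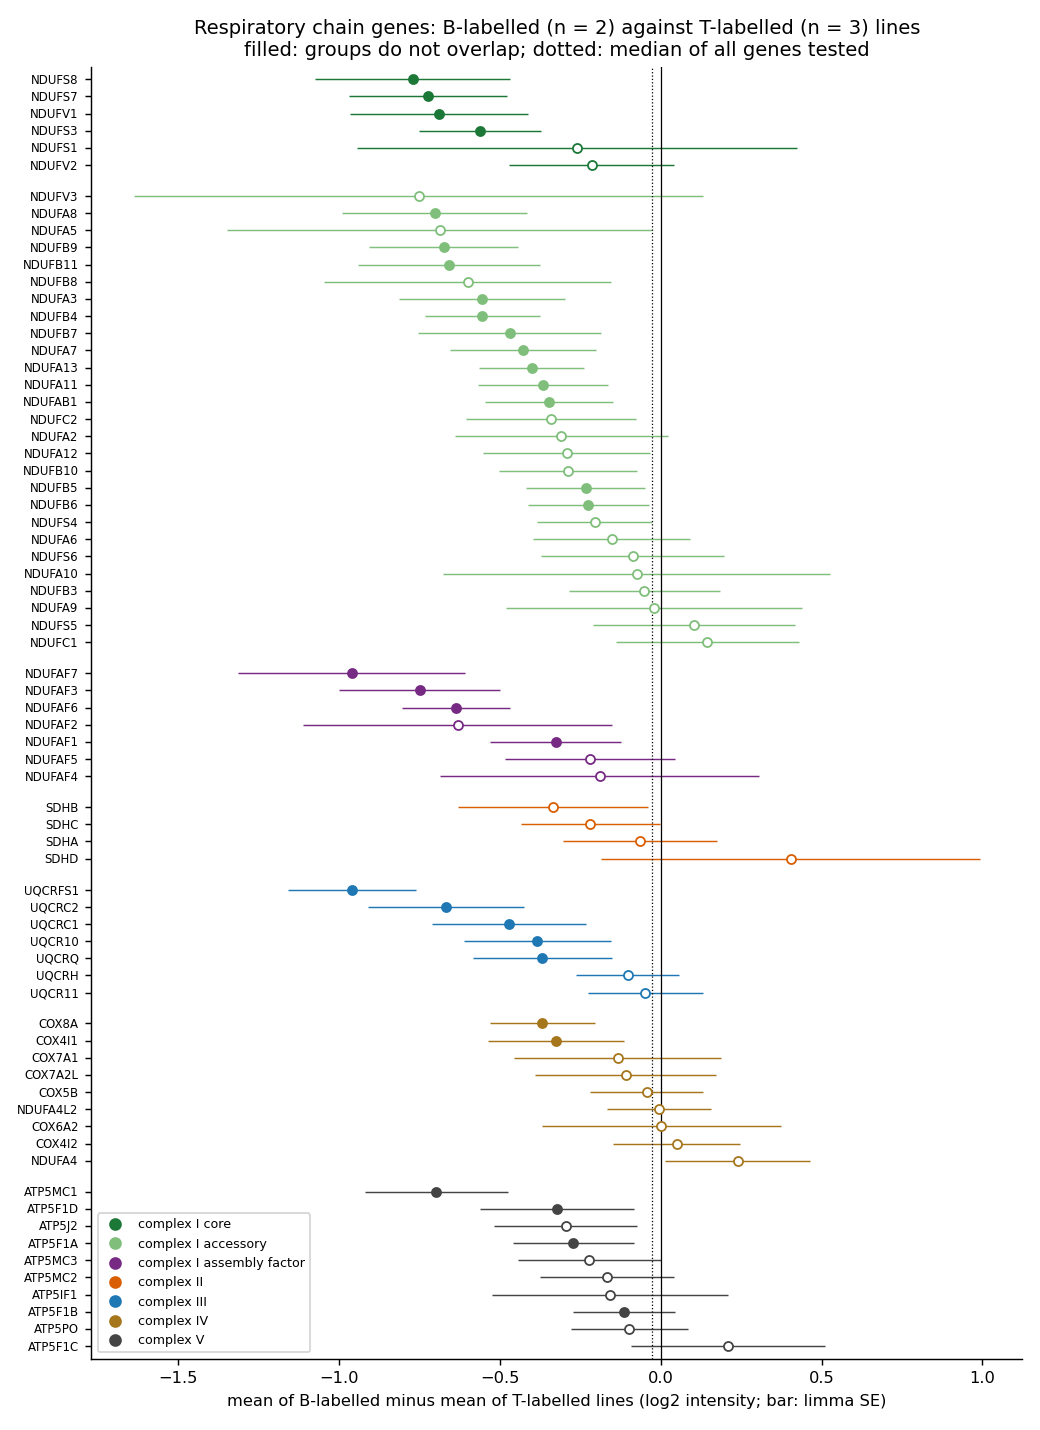
Difference between the means of the 2 B-labelled and the 3 T-labelled lines for each of the 70 genes, in log2 intensity, with the limma SE as a bar and genes grouped and coloured by role. Filled points mark the 31 genes whose groups did not overlap, all of them left of 0. The dotted line marks the median of all genes tested (-0.03).

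A marker list of another cell type moved with the same grouping. The 6 myeloid markers (LYZ, CD14, CSF1R, ITGAM, S100A8 and S100A9) had summed log2 levels of 52.47 to 53.50 in the B-labelled lines and 33.77 to 35.43 in the T-labelled lines. Above the highest control lay 5 of 6 in 17-71 and 4 of 6 in GL-1. Each T-labelled line had 2 to 3. LYZ, S100A8 and S100A9 lay in the control range in every T-labelled line. The other markers, CD14, CSF1R and ITGAM, did not follow the grouping (6.47 to 8.26 over all lines). The part of these genes in the respiratory chain difference was not tested. The 5 fibroblast markers had summed levels of 28.67 to 29.13 and 27.77 to 29.77, with COL1A1, DCN and LUM in the control range in every line.

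The ends of the scale were shared unevenly among the lines. The highest value of a gene lay in a T-labelled line in 66 of 70 genes (94.3%), against 71.8% of all genes tested. CLL-1390 held 32 of these highest values (45.7%, against 21.2% of all genes), CLGL-90 held 18 (25.7%, against 27.0%) and CL-1 16 (22.9%, against 23.5%). Among genes with a mean of at least log2 11 the shares were 25.6% in CLL-1390, 12.2% in CLGL-90 and 30.6% in CL-1. The lowest value lay in a B-labelled line in 51 of 70 genes (72.9%, against 33.7%), 28 of them in GL-1 (where 2259 of all 14162 genes tested were lowest) and 23 in 17-71 (against 17.7%). CL-1 held the lowest value of 14 genes (20.0%), where 37.0% of all genes tested were lowest in that line. Among genes with a mean of at least log2 11 that share was 18.5%, close to that of the chain. CLGL-90 was lowest in 0 of 70 genes, where 15.2% of all genes tested had their lowest value in that line (23.1% with a mean of at least log2 11).

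**Figure D2:**
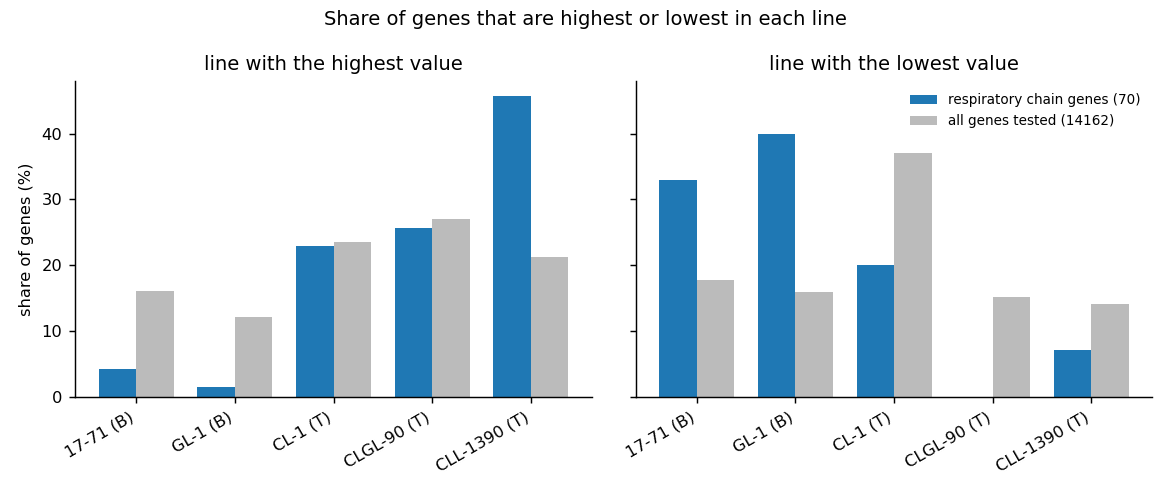
Share of genes, in percent, that have their highest value (left) or their lowest value (right) in each line, for the 70 respiratory chain genes (blue) and all 14162 genes tested (grey). CLL-1390 holds 45.7% of the highest values and GL-1 40.0% of the lowest values of the chain, and CLGL-90 holds none of the lowest. The grey bars are not matched for intensity. Among genes with a mean of at least log2 11, 12.2% were highest in CLGL-90 and 18.5% lowest in CL-1.

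Measured as the median over genes of a line's value minus the median of the other 4 lines, the chain lay at -0.25 in GL-1 and -0.16 in 17-71. It lay at 0.08 in CL-1, 0.12 in CLGL-90 and 0.21 in CLL-1390. The same measure over all genes tested ran from -0.08 in CL-1 to 0.06 in CLGL-90. Over genes with a mean of at least log2 11 it was 0.10 in CL-1, -0.07 in CLGL-90 and 0.05 in CLL-1390. In these genes it was -0.01 in GL-1 and -0.03 in 17-71. The chain's value in CL-1 was thus no higher than that of other bright genes. The position of CL-1 is not settled, since it moved to -0.0208 when a gene's probe sets were averaged and to 0.18 when arrays were centred on their medians. In 62 of 70 genes GL-1 lay below the median of the other lines, against 7946 of all 14162 genes tested. In 55 of 70 CLL-1390 lay above it, against 8172 of all genes tested. The median absolute difference between 2 lines over the 70 genes was smallest for the pair 17-71 and GL-1 (0.21) and largest for GL-1 and CLL-1390 (0.43). Over all genes tested 17-71 and GL-1 were also the closest pair (0.23), and GL-1 and CLL-1390 lay at 0.25.

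Few members differed between lines by much. The range over the 5 lines had a median of 0.78, close to that of all genes tested (0.76). A range of log2 1 or more, a doubling, was found in 23 of 70 genes (32.9%, against 39.0% of all genes tested and 42.0% of those with a mean of at least log2 11), and of log2 2 or more in 3 of 70 (4.29%, against 14.2%, and 6.84% of genes with a mean of at least log2 11). All 3 belonged to complex I: NDUFV3 (2.79), NDUFA5 (2.10) and NDUFS1 (2.07).

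The core subunits of complex I, which carry its flavin and iron-sulfur clusters, all had lower B-labelled means (6 of 6), with a median difference of -0.62. In 4 of 6 the groups did not overlap, against 9.26% of all genes tested with lower B-labelled values. NDUFS8, a subunit with iron-sulfur clusters on the path to quinone, stood at 11.82 in 17-71 and 11.85 in GL-1. It stood at 13.04 in CL-1, 12.16 in CLGL-90 and 12.62 in CLL-1390. The B-labelled lines lay close together and under every T-labelled line, a difference of -0.77 (SE 0.30, limma adjusted p = 0.9999). NDUFV1, which binds the flavin that accepts electrons from NADH, stood at 11.98 and 11.93 against 12.98, 12.22 and 12.73 in the same order of lines. This is a difference of -0.69 (SE 0.28), also without overlap.

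NDUFS7 and NDUFS3, both near the quinone site, followed with differences of -0.72 (SE 0.25) and -0.56 (SE 0.19). NDUFS7 stood at 11.18 in 17-71, 10.98 in GL-1, 11.56 in CL-1, 11.69 in CLGL-90 and 12.15 in CLL-1390. NDUFS3 stood at 11.78 and 12.14 against 12.48 to 12.58. In both genes every B-labelled value lay under every T-labelled value.

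NDUFS1, the largest iron-sulfur subunit of the NADH arm, and NDUFV2, its iron-sulfur neighbour, did not separate the groups. NDUFS1 stood at 12.57 in CL-1, against 11.50 in GL-1, 11.11 in CLGL-90, 10.77 in 17-71 and 10.50 in CLL-1390. CL-1 was thus 1.07 above the next line, while the other T-labelled lines were no higher than GL-1. Of the 3 further probe sets of NDUFS1, 2 were also highest in CL-1 (12.12 and 11.58, against at most 11.52 and 10.54), and the other read 9.75 in CL-1 and 9.97 in GL-1. NDUFV2 ranged from 12.42 in CLL-1390 to 13.07 in CL-1. CL-1 held the highest value of 4 of the 6 core subunits (NDUFV1, NDUFV2, NDUFS1 and NDUFS8). It did so in 23.5% of all genes tested and in 30.6% of those with a mean of at least log2 11.

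Among the 27 accessory subunits of complex I, which surround the core and are needed for its assembly or stability, 25 had lower B-labelled means and 12 did not overlap. Their median difference was -0.34. The 12 without overlap, all with lower B-labelled values, stand against 9.26% of all genes tested. NDUFB4, a membrane-arm subunit, stood at 12.42 in 17-71 and 12.53 in GL-1, and at 12.97 in CL-1, 12.92 in CLGL-90 and 13.19 in CLL-1390. The difference was -0.55 (SE 0.18), with no overlap. NDUFB9, another membrane-arm subunit, stood at 12.07 and 11.95 against 12.44 to 13.00, a difference of -0.67 (SE 0.23). NDUFA13, also known as GRIM-19, stood at 12.54 and 12.56 against 12.86 to 13.05, a difference of -0.40 (SE 0.16). None of the 3 passed in limma over all genes.

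Single accessory subunits marked single lines. NDUFV3, a small subunit of the NADH arm, stood at 12.79 in CLGL-90, against 10.92 in 17-71, 10.71 in CLL-1390, 10.13 in CL-1 and 9.998 in GL-1. CLGL-90 was thus 1.87 above the next line, the largest gap of any member. The other probe set of NDUFV3 was also highest in CLGL-90, but at 11.35 against 10.99 in CLL-1390. The size of this gap therefore differs between the probe sets.

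NDUFA5, a subunit of the arm that reduces quinone, stood at 13.48 in CLL-1390 against 12.03 in CLGL-90, 11.73 in 17-71, 11.49 in GL-1 and 11.38 in CL-1. The gap of 1.46 rests on 1 probe set. NDUFB8, a membrane-arm subunit, was low in 17-71 alone: it stood at 11.78 there and at 12.86 to 13.25 in the other 4 lines, also on 1 probe set. NDUFA10, a kinase-like subunit of the membrane arm, was spread out over all lines. It stood at 10.60 in CL-1, 11.05 in 17-71, 11.50 in CLGL-90, 11.81 in GL-1 and 12.41 in CLL-1390, and its other probe set gave the same order.

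NDUFA9, which lies between the arms of complex I, was highest in 17-71 (12.98) and lowest in GL-1 (11.57), so the B-labelled lines took opposite ends of the scale. NDUFA8 was lowest in 17-71, which lay 0.69 under the next line, and ran from 12.69 to 13.19 in the other lines. NDUFS6, a zinc-binding subunit of the NADH arm, was likewise highest in 17-71 (12.72) and lowest in GL-1 (11.91). NDUFA2 was highest in CLL-1390 (13.33 against 12.34 to 12.62), as was NDUFB7 (12.32 against 11.24 to 11.75). NDUFC2 was highest in CLGL-90 (13.01 against 12.18 to 12.50), and NDUFA6 was lowest in CLL-1390 (11.53 against 11.74 to 12.11).

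In all, 5 of 70 genes had a line that differed from each of the other 4 by log2 1 or more. CL-1 was above the others in NDUFS1 and in the assembly factor NDUFAF2, 2 of 70 genes where 3.50% of all genes tested showed this, and below them in 0 of 70 (against 0.967%). CLGL-90 was above in NDUFV3 (1 of 70, against 1.51%) and below in 0 of 70 (against 0.784%). CLL-1390 was above in NDUFA5 (1 of 70, against 1.48%) and below in 0 of 70 (against 1.21%). 17-71 was below in NDUFB8 (1 of 70, against 0.967%) and above in 0 of 70 (against 2.01%). These shares lie near or below the background. GL-1 had 0 of 70 above (against 1.09%) and 0 of 70 below (against 0.558%).

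**Figure D3:**
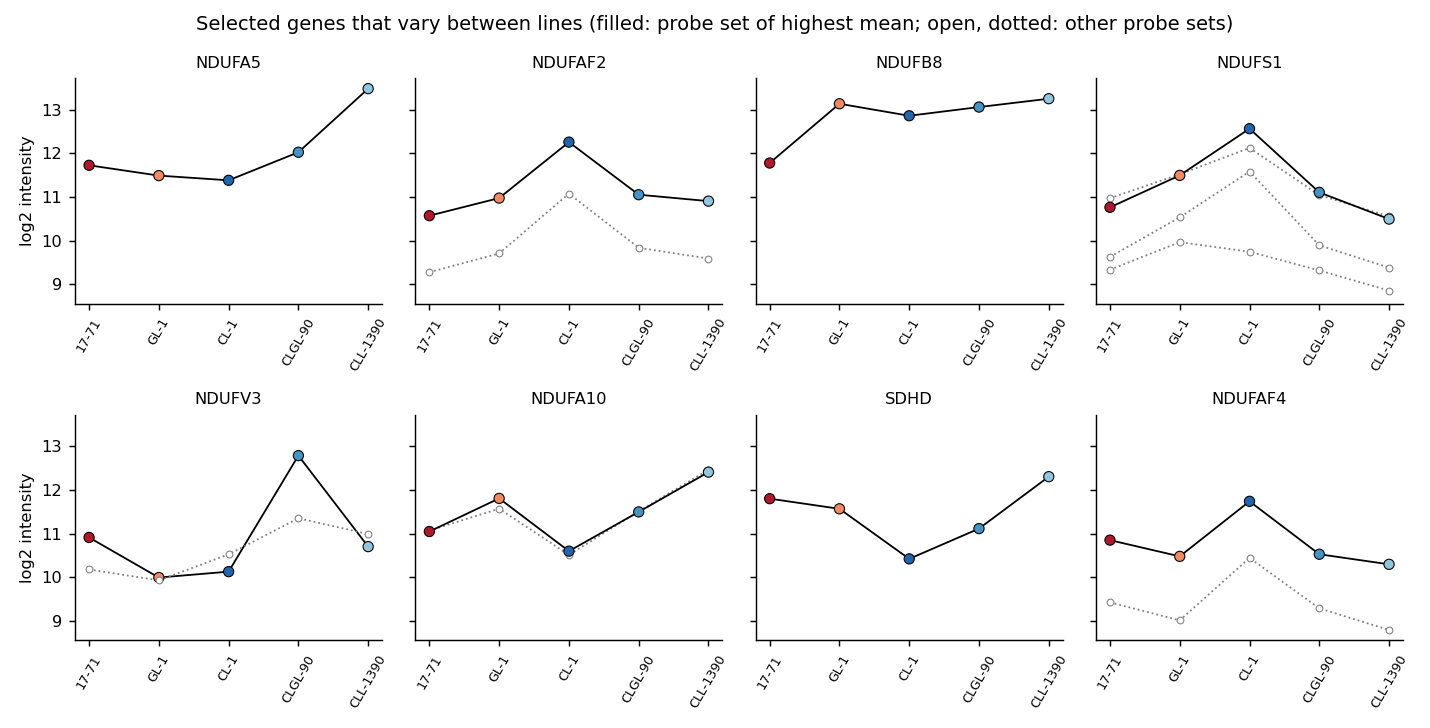
Log2 intensity in each line for the 5 genes with a line that differed from all others by log2 1 or more (NDUFA5, NDUFAF2, NDUFB8, NDUFS1 and NDUFV3) and for NDUFA10, SDHD and NDUFAF4. Filled points show the probe set of highest mean and open points on dotted lines the other probe sets of the gene; lines join values of a probe set and imply no order of the cell lines. The peak of NDUFAF2 and NDUFAF4 in CL-1 is present on both probe sets, and the peak of NDUFV3 in CLGL-90 is smaller on its other probe set.

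The 7 complex I assembly factors, which help to build the complex but are not part of it, all had lower B-labelled means (median difference -0.63). In 4 of 7 the groups did not overlap, against 9.26% of all genes tested with lower B-labelled values. CL-1 held the highest value in 5 of the 7, against 23.5% of all genes tested. NDUFAF2, a chaperone related to the subunit NDUFA12, stood at 12.26 in CL-1 against 10.57 in 17-71, 10.98 in GL-1, 11.05 in CLGL-90 and 10.91 in CLL-1390. Its other probe set repeated the gap (11.08 against 9.28 to 9.84). NDUFAF4 stood at 11.74 in CL-1 against 10.30 to 10.85, and its other probe set at 10.45 against 8.80 to 9.43.

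NDUFAF7, a methyltransferase, stood at 8.62 in 17-71 and 8.83 in GL-1, below 10.29 in CL-1, 9.34 in CLGL-90 and 9.42 in CLL-1390. The groups did not overlap, with a difference of -0.96 (SE 0.35). NDUFAF3, which works together with NDUFAF4, was high in other lines than its partner: it stood at 11.50 in CLL-1390 and 11.35 in CLGL-90, against 10.93 in CL-1, 10.67 in 17-71 and 10.36 in GL-1. Its difference was -0.75 (SE 0.25). NDUFAF6 stood at 9.83 in 17-71 and 10.02 in GL-1, below 10.58, 10.49 and 10.61 in CL-1, CLGL-90 and CLL-1390, a difference of -0.64 (SE 0.17). The T-labelled lines lay within 0.12 of each other in this gene. None of the 3 passed in limma over all genes (adjusted p = 0.9999 for each).

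**Figure D4:**
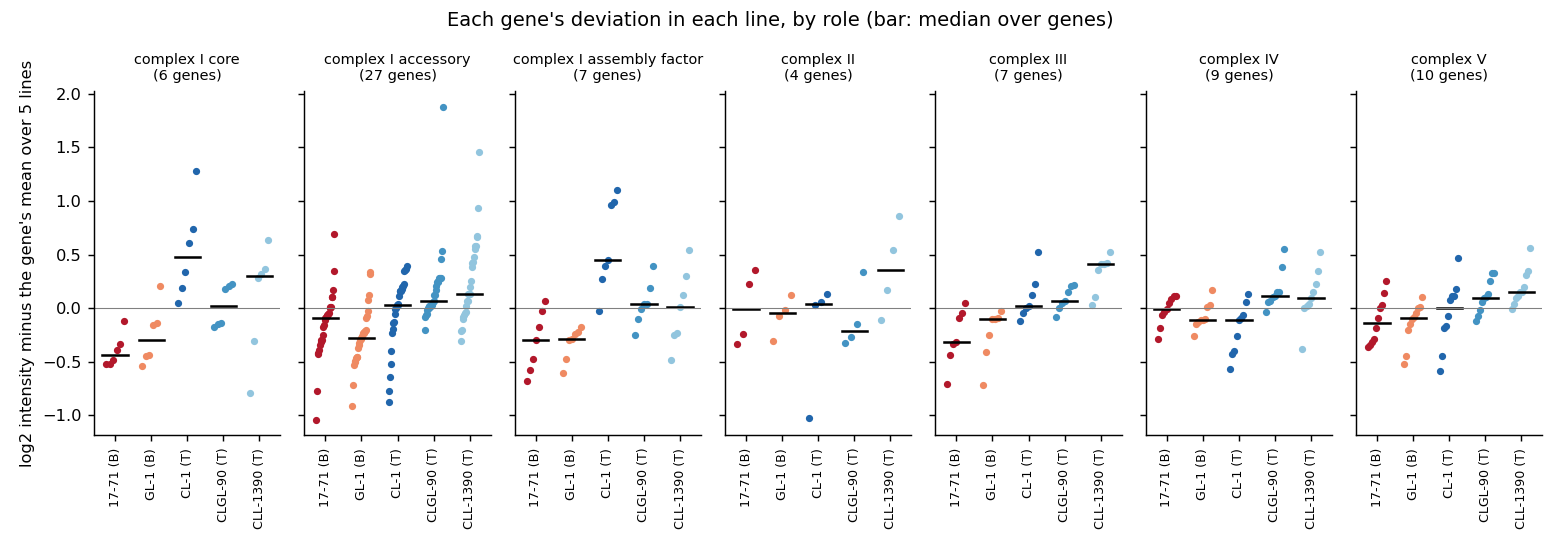
Log2 intensity of each gene minus its own mean over the 5 lines, by line, in panels by role; each point is a gene and each black bar the median over genes. The bars of 17-71 and GL-1 lie below 0 in the complex I and complex III panels, CL-1 is raised in the core subunits and assembly factors of complex I, and the bars of the complex IV panel stay close to 0.

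Complex II, which is also the succinate dehydrogenase of the citric acid cycle, had lower B-labelled means in 3 of 4 genes (54.9% of all genes tested). The median difference was -0.14. The groups overlapped in 4 of 4 genes, as they did in 11984 of all 14162 genes tested. SDHA, the flavoprotein, ranged from 11.55 in GL-1 to 12.09 in 17-71. SDHC, a membrane anchor, ranged from 12.14 in 17-71 to 12.72 in CLGL-90. SDHB, the iron-sulfur subunit, was highest in CLL-1390 (12.59) and ran from 11.73 to 12.19 in the other lines.

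SDHD, the other membrane anchor, varied most. It stood at 12.31 in CLL-1390, 11.80 in 17-71, 11.57 in GL-1, 11.12 in CLGL-90 and 10.43 in CL-1. CL-1, lowest in SDHD, was second highest on the main probe set of SDHC (12.41), but of the 2 further probe sets of SDHC 1 was also lowest in CL-1 (11.48 against 11.59 to 12.04). The difference between the groups was 0.40 (SE 0.59) for SDHD, and without CL-1 it was -0.02.

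Complex III, which hands electrons from quinol to cytochrome c, had lower B-labelled means in 7 of 7 genes (median difference -0.38). There was no overlap in 5 of 7, against 9.26% of all genes tested with lower B-labelled values. UQCRFS1, the Rieske iron-sulfur protein, stood at 12.52 in 17-71 and 12.24 in GL-1. The T-labelled lines stood at 13.48 in CL-1, 13.16 in CLGL-90 and 13.38 in CLL-1390. The means were 12.38 ± 0.19 (SD, n = 2) and 13.34 ± 0.16 (SD, n = 3). The difference of -0.96 (SE 0.20) had the lowest unadjusted limma p of all 70 genes (0.00545, adjusted p = 0.998), and its other probe set showed the same separation (11.67 and 11.51 against 12.35 to 12.53).

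UQCRC2 and UQCRC1, the core proteins of complex III, differed by -0.67 (SE 0.24) and -0.47 (SE 0.24). UQCRC2 stood at 11.40 in 17-71 and 12.01 in GL-1, below 12.32 to 12.46, and UQCRC1 at 12.93 and 12.99 against 13.16 to 13.77. The small subunits UQCR10 and UQCRQ also did not overlap, with differences of -0.38 (SE 0.23) and -0.37 (SE 0.22). UQCRH, the hinge protein, hardly moved on its brightest probe set (14.10 to 14.30), but ranged by 0.97 and 1.06 on 2 dimmer ones, on both of which CLL-1390 was highest (13.15 and 13.09). The brightest values on any array were 14.83 to 15.13, and the part of compression at the top of the scale in the small range of UQCRH was not tested.

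Complex IV, the terminal oxidase, had a median difference of -0.04 over its 9 genes. In 2 of 9 the B-labelled lines were lower without overlap, against 9.26% of all genes tested. A range of log2 1 or more was found in 1 of 9 genes. The median includes COX4I2, COX6A2, COX7A1 and NDUFA4L2, whose means over the 5 lines were low (7.72, 7.42, 7.59 and 6.52). COX6A1, COX6B1 and COX7A2 were not among the members. COX4I1, the common isoform of subunit 4, stood at 13.35 in 17-71 and 13.52 in GL-1. It stood at 13.52 in CL-1, 13.78 in CLGL-90 and 13.98 in CLL-1390. This is separation without overlap by a very small margin between GL-1 and CL-1, and the difference was -0.33 (SE 0.21). COX8A stood at 13.26 and 13.18 against 13.50 to 13.67, a difference of -0.37 (SE 0.16). COX5B stayed within 0.26 over all lines.

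Isoforms typical of other tissues read low in every line. COX4I2, the isoform of lung and oxygen-poor tissue, read 7.46 to 7.82. COX6A2 and COX7A1, the isoforms of heart and skeletal muscle, read 6.85 to 7.97 and 7.16 to 8.11. All 3 lay above the highest control of each array on these probe sets, but the other probe set of COX4I2 (6.14 to 6.29) did so in 0 lines. COX6A2 was highest in CLGL-90 on both probe sets (7.97 against 6.85 to 7.54, and 7.78 against 6.77 to 6.93), and COX7A1 was highest in CLL-1390. NDUFA4 stood at 12.47 in CL-1 and 12.82 to 13.03 in the other lines, a difference between groups of 0.24 (SE 0.23). COX7A2L, which helps to join complexes III and IV, ran from 11.33 in CLL-1390 to 12.10 in CLGL-90.

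Complex V had lower B-labelled means in 9 of 10 genes, mostly by little (median difference -0.19). In 4 of 10 there was no overlap, against 9.26% of all genes tested with lower B-labelled values. The catalytic subunits ATP5F1A and ATP5F1B ranged by 0.49 and 0.21 on their brightest probe sets. The ATP5F1B probe set lies near the top of the scale (14.10 to 14.31), and a dimmer one ranged by 0.58. The membrane ring of the enzyme is made of subunit c, for which ATP5MC1, ATP5MC2 and ATP5MC3 encode the same mature protein. ATP5MC1, often the regulated copy, stood at 12.75 in 17-71 and 12.55 in GL-1, below 13.25 in CL-1, 13.16 in CLGL-90 and 13.64 in CLL-1390. Its groups did not overlap and differed by -0.70 (SE 0.22, limma adjusted p = 0.9999). ATP5MC2 and ATP5MC3 overlapped and differed by -0.17 (SE 0.21) and -0.22 (SE 0.22); whether the copies differ in this from ATP5MC1 was not tested.

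ATP5IF1, the protein that blocks ATP hydrolysis by the enzyme, split the lines across the labels. It stood at 13.27 in both CL-1 and GL-1, and at 13.96 in 17-71, 14.04 in CLGL-90 and 14.02 in CLL-1390. The other 2 probe sets showed the same split more widely, at 12.49 and 12.66 against 13.53 to 13.65, and at 11.995 and 12.05 against 13.35 to 13.43. ATP5F1D, the delta subunit, was highest in CL-1 (13.09 against 12.33 to 12.62). ATP5F1C, the gamma subunit that turns in the enzyme, was lowest there (12.68 against 13.38 to 13.47).

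Only 7 of the 70 genes had higher B-labelled means, and the 5 with the lowest p among them were SDHD, NDUFA4, ATP5F1C, NDUFC1 and NDUFS5. All 5 overlapped between groups. Leaving out CL-1 turned the sign in 4 of them: SDHD went from 0.40 to -0.02, ATP5F1C from 0.21 to -0.04, NDUFC1 from 0.14 to -0.09 and NDUFS5 from 0.10 to -0.08. NDUFA4 went from 0.24 to 0.09. In SDHD, NDUFA4, ATP5F1C, NDUFC1 and NDUFS5 CL-1 had the lowest value of the 5 lines.

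Other probe sets of the same genes mostly agreed in direction. Of 69 further probe sets of 44 genes, 61 lay above the highest control in every line. Of these 61, 52 had a group difference of the same sign as the gene's main probe set and 45 had the same highest line. None of the 135 tested (of 139) passed in limma over 36661 probe sets, of which 5 passed. The widest disagreements concerned CL-1. A further probe set of NDUFB6, a membrane-arm subunit, read 8.46 in CL-1 against 9.53 to 11.01, although the main one read 13.01 against 12.77 to 13.26. A further probe set of NDUFC1 read 8.69 in CL-1 against 10.24 to 11.43, and the main one 12.70 against 13.29 to 13.43. For NDUFAB1, the mitochondrial acyl carrier protein, 1 further probe set read 7.38 in CL-1 against 8.17 to 9.33, while the main one read 12.95 against 12.43 to 13.05. In these 3 genes the dimmer probe set was lowest in CL-1, and the cause was not tested.

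Genes around the chain were read from lists for the same pathway. The 13 subunits encoded in mitochondrial DNA had no probe set with a symbol here and were not analysed. None of the listed genes passed in limma over all genes. The counts without overlap stand against 9.26% of all genes tested with lower and 6.12% with higher B-labelled values. Of 35 assembly factors outside the naming rule, 11 did not overlap with lower B-labelled values and 1 with higher ones (median difference -0.22). COX17, the copper chaperone of complex IV, stood at 13.10 in CLGL-90 and 12.22 in CLL-1390, above 11.52 in CL-1, 11.14 in 17-71 and 10.78 in GL-1. LRPPRC, which stabilises mitochondrial mRNAs, ran the other way, from 10.49 in CLL-1390 and 10.82 in CLGL-90 to 11.95 to 12.26 in the other 3 lines.

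Of 73 mitochondrial ribosomal proteins, which translate the subunits encoded in mitochondrial DNA, 58 had lower B-labelled means (median difference -0.30). In that direction 17 did not overlap and in the other 2, against 9.26% and 6.12% of all genes tested. CL-1 was highest in 36 of the 73 (49.3%, against 23.5% of all genes tested). MRPL19 stood at 11.81 in CL-1 and 11.51 in CLGL-90 against 9.17 in GL-1, and MRPL32 at 11.50 in CL-1 against 9.39 in CLL-1390. Of 15 electron carriers and quinone synthesis genes, 3 did not overlap with lower and 1 with higher B-labelled values (median difference -0.28). The shares of all genes tested were 9.26% and 6.12%. The gene with higher values, GPD2, lay under the highest control in every line (5.14 to 6.39). COQ2, an enzyme of ubiquinone synthesis, ran from 10.26 in CLL-1390 to 12.56 in CL-1, and PDSS2, which makes its side chain, was highest in CL-1 (9.80 against 7.77 to 8.43).

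Of 15 citric acid cycle genes, 5 did not overlap with lower and 2 with higher B-labelled values, against 9.26% and 6.12% of all genes tested. Their median difference was -0.09. IDH3G, a subunit of isocitrate dehydrogenase, stood at 10.89 in CL-1 against 9.19 to 10.01, and DLST, of the oxoglutarate dehydrogenase complex, ran from 8.30 in CLGL-90 to 9.88 in GL-1. The 9 carriers and channels had a median difference of -0.18 and no gene without overlap, with UCP2 from 10.91 in CL-1 to 12.26 in CLGL-90 and VDAC1 from 12.05 in 17-71 to 13.06 in GL-1.

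Regulators of mitochondrial transcription and biogenesis showed no common direction between the groups. Of 16 tested, 8 had lower and 8 higher B-labelled means, and the median difference was 0.01. With lower B-labelled values 1 did not overlap, against 9.26% of all genes tested. CL-1 was highest in 11 of the 16 (68.8%, against 23.5% of all genes tested), with a median of 0.53 above the other lines. GABPA, a subunit of the factor that binds many respiratory chain promoters, stood at 10.09 in CL-1 against 8.26 to 9.38. GABPB2, a partner of GABPA, was highest in GL-1 (8.47 against 6.41 to 7.47).

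**Figure D5:**
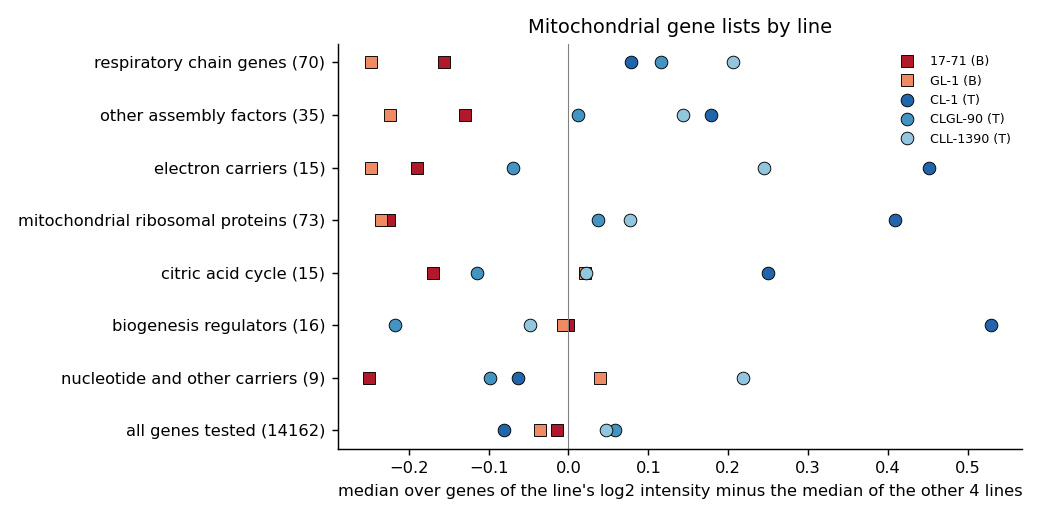
For each gene list, the median over genes of a line's log2 intensity minus the median of the other 4 lines; squares are B-labelled and circles T-labelled lines, and the number of genes is in brackets. The respiratory chain genes, other assembly factors, electron carriers and mitochondrial ribosomal proteins have both squares below every circle; the citric acid cycle, biogenesis regulator and carrier lists do not, and CL-1 stands at 0.53 in the regulators.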

How the data were processed

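Total RNA of 5 untreated lines, with a RIN above 9 per the labels, was hybridised to 1 array per line. The authors deposited 1 log2 intensity per probe set and array, made with GCRMA (background correction, normalization and summary) according to the labels and per the submitters' processing notes. The version of GCRMA is not given in the sources used here. Of 43035 probe sets, 111 Affymetrix controls were left out, 29254 carried a single gene symbol. The 439 with several symbols and the 13231 outside the annotation were set aside. By gene ID, 68 of the 70 member genes were found in the RefSeq table (assembly UU_Cfam_GSD_1.0). A further 5 probe sets naming a member beside other genes were not used.

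A probe set entered the test if 2 or more arrays read log2 5 or higher, and the 1 of highest mean stood for its gene (14162 of 15115 genes). The lineage groups were tested against each other in R 4.3.3 using lmFit and eBayes of limma 3.58.1 (prior df 1.74), two-sided, with Benjamini-Hochberg adjustment over all genes at 0.05. The script was tested on simulated data. Single lines, with no replicate, were described by size without a test. Named genes were those past the threshold, the 4 of largest range per role group (complex I subunits as 1 group), all of complex II, isoform sets, the 5 of lowest p per direction, the 3 largest gaps per line and direction, and 2 per other list. Other members named, such as the remaining core subunits, were chosen after their values were seen. The members and lists were chosen with earlier results of these data known. Alternatives changed the filter, normalization, floor, prior, grouping, probe set summary, membership and lines. No sequences of the members were in the sources used here.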

Additional observations from a re-analysis of the deposited data

How the results depend on the processing

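The number of members past the threshold in limma was 0 under all 16 alternatives run. The median difference between B-labelled and T-labelled lines stayed between -0.34 and -0.27 under the 10 alternatives that keep all arrays. In 1 of these CLGL-90 was set apart, so that only CL-1 and CLL-1390 stood for the T-labelled lines (-0.29). The median was between -0.34 and -0.28 when a line was left out. The number of members without overlap, all with lower B-labelled values, ran from 26 with the probe set of largest range to 32 with arrays centred on their medians. The shares of all genes tested with this pattern were 8.67% and 11.3%. It was 33 with CLGL-90 set apart (15.8%). Counting both directions, it ran from 33 to 45 when a line was left out, where fewer lines make separation easier. With lower B-labelled values alone it was 33 to 44, against 14.3% to 26.0% of all genes tested. The count of all genes past the threshold (1) was 9 with the filter at log2 7, 8 after quantile normalization again and 8 with arrays centred on their medians. It was 10 with an intensity trend and robust prior, 3 with probe sets averaged, 11 with the probe set of largest range, 0 when CLGL-90 formed a group by itself and 0 to 0 without any 1 line. With arrays centred on their medians, the line median moved to 0.18 in CL-1 and to 0.059 in CLGL-90. With probe sets averaged it was -0.0208 in CL-1. With the probe set of largest range, 8 members stood log2 1 apart from every other line.

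Leaving out each line in turn, the line medians ran from -0.28 to -0.11 in 17-71, 0.0147 to 0.17 in CL-1, -0.30 to -0.23 in GL-1, 0.0623 to 0.22 in CLGL-90 and 0.12 to 0.28 in CLL-1390. The count of members log2 1 apart ran from 3 to 5, lowest without CL-1. Differences between groups ran from -0.0425 to 0.35 in ATP5F1C, -0.0872 to 0.28 in NDUFC1, -0.0753 to 0.36 in NDUFS5 and -0.0249 to 0.92 in SDHD, in each case turning negative without CL-1. No paired analysis was possible because the labels give no replicate numbers that pair the lines. With 1 array per line, array noise cannot be told from differences between lines.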
